A study of Saccharomyces cerevisiae with 14 samples.

Results

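The 8 genes described here encode the subunits of succinate dehydrogenase and the proteins that assemble it. *SDH1* (YKL148C), *SDH2* (YLL041C), *SDH3* (YKL141W) and *SDH4* (YDR178W) encode the subunits, and *SDH5* (YOL071W), *SDH6* (YDR379C-A), *SDH7* (YDR511W) and *FMP21* (YBR269C, also called *SDH8*) encode the assembly factors. They were taken by name out of 5449 *Saccharomyces cerevisiae* genes with a named probe set, and each had 1 probe set on the array. The data are 14 Affymetrix yeast arrays, each hybridised with the RNA of 1 sample. The heat-tolerant strain NFRI 3236 and the heat-sensitive strain NFRI 3155 each had 2 arrays of cells given a short treatment at 39°C and 2 of untreated cells at 30°C. The control strain S288C had 3 arrays at each temperature. By the methods of the study, all cells were grown exponentially in a rich medium with glucose. The strains differ throughout their genomes, so a strain difference cannot be assigned to a known allele, and each strain stands for itself alone. The study picked *FMP21* from these arrays for the order of its heat response over the 3 strains, so its values are given as a description and are no independent evidence of that order.

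Succinate dehydrogenase, or complex II, sits in the inner mitochondrial membrane, oxidizes succinate to fumarate in the tricarboxylic acid cycle and passes the electrons to ubiquinone. Sdh1 carries a covalently bound flavin (FAD), Sdh2 carries iron-sulfur clusters, and Sdh3 and Sdh4 anchor the enzyme in the membrane. Sdh5 is needed to attach the flavin to Sdh1, and Fmp21 (Sdh8) binds flavin-loaded Sdh1 before it meets Sdh2. Sdh6, a small protein with an LYR motif, and Sdh7 act in the maturation of Sdh2. Yeast growing on glucose keeps much of its respiratory machinery repressed, and the HAP transcription complex is an activator of the genes concerned.

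The values below are relative signals, the signal of a probe set divided by the 75th percentile of all signals on its array, so a change of total mRNA per cell cannot be seen in them. All 8 genes were above background on all 14 arrays, with the background of an array set at the 95th percentile of its probe sets for the fission yeast *Schizosaccharomyces pombe*. The heat treatment itself showed in *HSP26*, a small heat shock protein, with relative signals of 26.2 to 59.8 on the 7 arrays at 39°C and 0.0582 to 0.182 on the 7 arrays at 30°C. S288C is of the alpha mating type. Its pheromone gene *MF(ALPHA)1* was only slightly above background on the 3 S288C arrays at 30°C (0.0792 to 0.118) and not above it on those at 39°C. The a-type gene *STE2* was above background on all S288C arrays as well (0.123 to 0.220). The alpha genes *SAG1* and *MF(ALPHA)2* were above it on all 14 arrays, whichever the strain. A further alpha gene, *STE3*, had 0.104 to 0.308 on the S288C arrays and 0.0203 to 0.0770 on the arrays of the NFRI strains. *STE3* thus set the S288C arrays apart at low signals, while the other mating-type genes named here give no clear check of the strain labels. The 3 S288C arrays at 30°C stood apart in the poly-A controls, where 0, 0 and 1 probe sets passed background, whereas 8 to 12 did so elsewhere, and the part of this in the S288C comparisons was not tested. NFRI 3236 39°C replicate 2 had a 3′ to 5′ signal ratio of 10.9 for *WBP1*, a sign of RNA integrity, against 1.41 to 5.86 on the other arrays. For *ACT1* the ratio of that array was 1.27, while the 3 S288C arrays at 30°C had 1.84 to 2.05 and the others 1.16 to 1.58. Differences were tested with limma and called at an adjusted p under 0.05 over 5443 genes. The methods of the study describe duplicate experiments on independently grown cells, whereas S288C had 3 arrays at each temperature. The labels number the arrays but do not tie each to a culture, so p-values measure only the spread between these arrays.

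The assembly factors had larger median heat responses than the subunits in all 3 strains. In NFRI 3236, 7 of the 8 genes were higher at 39°C and 0 were lower, against a background of 15.7% of all genes higher and 23.5% lower. In NFRI 3155, 4 of 8 were higher and 0 lower (18.1% and 24.1% of all genes), and in S288C 5 of 8 were higher and 0 lower (25.2% and 28.2%). Without *FMP21* these counts were 6, 4 and 4 of 7. The median log2 change of the 4 assembly factors was 1.97 in NFRI 3236, 1.63 in NFRI 3155 and 1.51 in S288C. For the 4 subunits it was 0.98, 0.66 and 0.28 in the same strains, and over all genes tested it was -0.10, -0.08 and -0.04. *SDH5*, *SDH6* and *SDH7* were called in all 3 strains, while no subunit was. Without the 75th percentile shift, the median change over all genes was 0.74 in NFRI 3236, 0.13 in NFRI 3155 and 0.56 in S288C. Leaving out the shift raises every gene of a strain by the same amount, somewhat more than these medians. Falls smaller than that amount turn sign on that scale, and all changes here are relative to the array. With quantile normalization 7 of 8 genes were higher in NFRI 3155. The methods' t-test with Benjamini-Hochberg adjustment called 0 of 8 in either strain with 2 arrays a group.

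**Figure D1:**
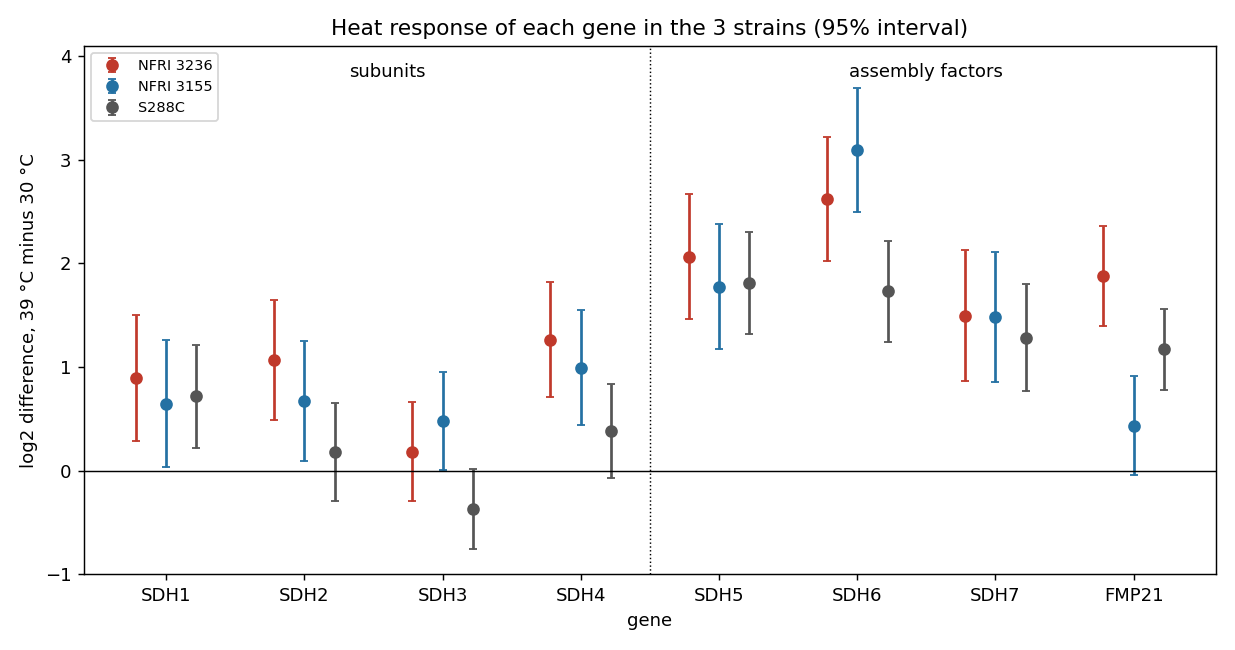
Log2 difference of 39°C minus 30°C (y axis) for each gene (x axis) in NFRI 3236, NFRI 3155 and S288C. Points are limma estimates and bars their 95% intervals; *SDH5*, *SDH6* and *SDH7* lie between 1.28 and 3.10 in every strain, and the subunits between -0.37 and 1.26.

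*SDH6* had the largest heat response of the 8 genes in NFRI 3236 and NFRI 3155. In NFRI 3236 its relative signal was 2.43 and 3.24 at 39°C, against 0.496 and 0.419 at 30°C. In NFRI 3155 it was 4.26 and 2.83 at 39°C, against 0.347 and 0.474 at 30°C, and in S288C it was 2.96, 2.96 and 2.76 at 39°C, against 0.931, 1.05 and 0.673 at 30°C. The signals at 39°C thus overlapped over the strains, with NFRI 3155 replicate 1 the highest, whereas the 2 NFRI strains lay below every S288C array at 30°C. The rise was 6.16-fold in NFRI 3236 (95% interval 4.07 to 9.31, adjusted p = 1.54e-05), 8.56-fold in NFRI 3155 (5.66 to 12.9, adjusted p = 2.16e-06) and 3.32-fold in S288C (2.37 to 4.65, adjusted p = 2.83e-05).

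*SDH5*, the flavinylation factor, had relative signals of 1.26 and 1.90 at 39°C in NFRI 3236, against 0.379 and 0.360 at 30°C. The signals in NFRI 3155 were 1.65 and 1.10 at 39°C, against 0.348 and 0.443 at 30°C, and in S288C 1.43, 2.16 and 1.74 at 39°C, against 0.434, 0.520 and 0.550 at 30°C. Every array at 39°C lay above every array at 30°C, whichever the strain. The change was 4.19-fold in NFRI 3236 (2.76 to 6.36, adjusted p = 1.04e-04), 3.42-fold in NFRI 3155 (2.25 to 5.20, adjusted p = 2.24e-04) and 3.51-fold in S288C (2.50 to 4.94, adjusted p = 2.11e-05). *SDH7*, a maturation factor of Sdh2, had relative signals of 1.97 and 2.01 at 39°C in NFRI 3236, against 0.707 and 0.702 at 30°C. The signals in NFRI 3155 were 2.66 and 2.60 at 39°C, against 0.794 and 1.11 at 30°C, and in S288C 1.55, 3.23 and 2.73 at 39°C, against 0.949, 1.01 and 0.985 at 30°C. S288C 39°C replicate 1 was the lowest of the heated arrays, but no array at 39°C overlapped with those at 30°C. The rises were 2.82-fold (1.82 to 4.37, adjusted p = 0.00143) in NFRI 3236, 2.79-fold (1.80 to 4.32, adjusted p = 0.00119) in NFRI 3155 and 2.44-fold (1.71 to 3.48, adjusted p = 5.25e-04) in S288C.

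On these arrays *FMP21* departed from the other assembly factors in NFRI 3155. Its relative signal in NFRI 3236 was 3.07 and 4.41 at 39°C, against 1.12 and 0.891 at 30°C. In NFRI 3155 it was 3.26 and 2.99 at 39°C, against 2.24 and 2.38 at 30°C, and in S288C 5.12, 4.87 and 4.41 at 39°C, against 2.37, 1.98 and 2.05 at 30°C. The heat response was 3.68-fold in NFRI 3236 (95% interval 2.64 to 5.13), 1.35-fold in NFRI 3155 (0.969 to 1.88) and 2.25-fold in S288C (1.72 to 2.96). The study also measured *FMP21* by real-time RT-PCR against *ACT1*, but none of the other assembly factors, so the departure is seen on the arrays alone. The RT-PCR ratios of *FMP21* were larger than these in each strain, NFRI 3155 included, and had the same order of responses. This order of responses was not an order of levels. Among heated cells the geometric mean was highest in S288C, then NFRI 3236, then NFRI 3155, where the lowest S288C array and the highest NFRI 3236 array both had 4.41 and the 2 NFRI strains overlapped. Among untreated cells NFRI 3155 and S288C overlapped, and the 2 arrays of NFRI 3236 stood apart below every other array of the series. The order of heat response from NFRI 3236 through S288C to NFRI 3155 was met by *FMP21*, which was picked for it, and by 2 of the other 7 genes (28.6%), *SDH1* and *SDH5*, against 12.3% of all genes tested. The smallest response was in S288C for 5 of these 7 genes (71.4%), against 33.5% of all genes.

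Of the subunits, *SDH4* responded in both NFRI strains. This membrane anchor had relative signals of 10.1 and 12.0 at 39°C in NFRI 3236, against 4.77 and 4.39 at 30°C. In NFRI 3155 it had 8.20 and 10.3 at 39°C, against 3.75 and 5.70 at 30°C, and in S288C 7.22, 8.05 and 6.71 at 39°C, against 6.89, 4.55 and 5.64 at 30°C. The temperatures did not overlap in the NFRI strains and overlapped in S288C. *SDH4* rose 2.40-fold in NFRI 3236 (1.63 to 3.53, adjusted p = 0.00188) and 1.99-fold in NFRI 3155 (1.35 to 2.92, adjusted p = 0.00723), and the ratio in S288C was 1.30 (0.951 to 1.78, adjusted p = 0.144). The call in NFRI 3155 was lost without NFRI 3155 30°C replicate 1 (log2 change 0.69, adjusted p = 0.105) and without NFRI 3155 39°C replicate 2 (0.83, adjusted p = 0.0502). It was lost as well with no 75th percentile shift (1.21, adjusted p = 0.0614), and *SDH4* was then called in S288C (0.98, adjusted p = 0.0352), as it was with quantile normalization (0.68, adjusted p = 0.0115). The methods' t-test, even unadjusted, did not call *SDH4* in NFRI 3155.

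*SDH1*, the flavoprotein, was called in NFRI 3236 and S288C, with a single array deciding much of the first call. Its relative signal in NFRI 3236 was 5.25 and 2.82 at 39°C, against 1.94 and 2.21 at 30°C. In NFRI 3155 it was 4.47 and 5.47 at 39°C, against 2.67 and 3.74 at 30°C, and in S288C 1.80, 1.85 and 2.03 at 39°C, against 1.18, 0.998 and 1.28 at 30°C. Every heated array lay above the untreated arrays of its strain, and every NFRI array at 39°C lay above every S288C array. The rise of *SDH1* was 1.86-fold for NFRI 3236 (1.22 to 2.84, adjusted p = 0.0229) and 1.65-fold for S288C (1.17 to 2.32, adjusted p = 0.0185), and the ratio in NFRI 3155 was 1.57 (1.03 to 2.39, adjusted p = 0.0819). The call in NFRI 3236 was lost with the methods' t-test, even unadjusted, and in a fit of only the arrays compared. Without NFRI 3236 39°C replicate 1 the log2 change in NFRI 3236 was 0.44 in place of 0.89 (adjusted p = 0.231), and without either array at 30°C it was 0.80 (adjusted p = 0.120, replicate 1 left out) or 0.99 (adjusted p = 0.0572, replicate 2 left out). The call in S288C was lost without S288C 30°C replicate 2 (0.62, adjusted p = 0.0726) and without S288C 39°C replicate 3 (0.67, adjusted p = 0.0559).

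*SDH2*, the iron-sulfur subunit, had relative signals of 3.77 and 3.70 at 39°C in NFRI 3236, against 1.48 and 2.14 at 30°C. In NFRI 3155 it had 4.01 and 5.11 at 39°C, against 2.37 and 3.41 at 30°C, and in S288C 3.02, 2.22 and 2.15 at 39°C, against 2.40, 1.83 and 2.23 at 30°C. It rose 2.09-fold in NFRI 3236 (1.4 to 3.13, adjusted p = 0.00706), a call lost without NFRI 3236 30°C replicate 1 (log2 change 0.80, adjusted p = 0.0832). The methods' t-test, even unadjusted, did not call the *SDH2* rise in NFRI 3236. The ratios in NFRI 3155 and S288C were 1.59 (1.06 to 2.38, adjusted p = 0.0606) and 1.14 (0.817 to 1.58, adjusted p = 0.506). Without NFRI 3155 30°C replicate 2 the ratio in NFRI 3155 was called (log2 change 0.94, adjusted p = 0.0439). *SDH3*, the other membrane anchor, which also serves in the TIM22 protein import complex, was called in no strain. Its relative signal in NFRI 3236 was 10.3 on both arrays at 39°C, against 10.1 and 8.13 at 30°C. In NFRI 3155 it was 13.5 and 14.7 at 39°C, against 9.47 and 10.8 at 30°C, and in S288C 8.12, 9.11 and 8.30 at 39°C, against 13.8, 9.43 and 10.3 at 30°C. The log2 difference of *SDH3* was 0.18 (-0.29 to 0.66) in NFRI 3236, 0.48 (0.00 to 0.95) in NFRI 3155 and -0.37 (-0.76 to 0.02) in S288C. Its sign in S288C turned with no 75th percentile shift (0.23) and with quantile normalization (0.12), and with quantile normalization it was called higher in NFRI 3236 (0.88, adjusted p = 0.00451) and NFRI 3155 (1.26, adjusted p = 2.76e-04).

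**Figure D2:**
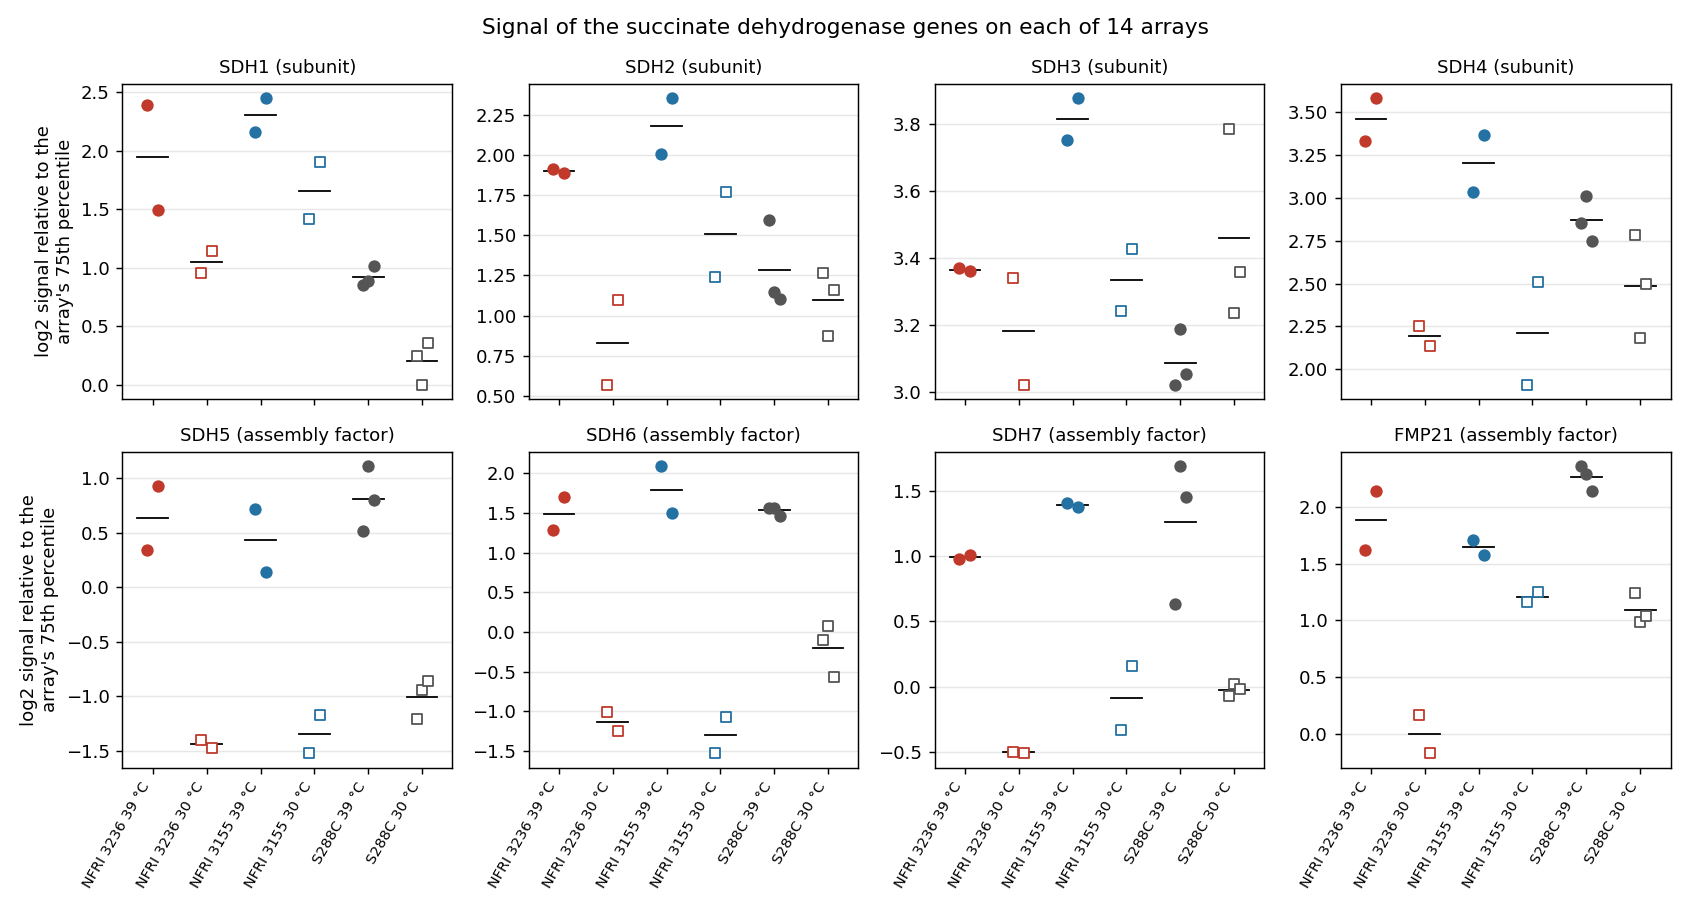
Log2 relative signal (y axis, separate scale for each gene) on each of the 14 arrays, by strain and temperature (x axis). Filled circles are arrays at 39°C, open squares arrays at 30°C and bars group means; in *FMP21* the 2 untreated NFRI 3236 arrays (relative signals 1.12 and 0.891) lie below all others, and in *SDH1* the S288C arrays lie below those of the NFRI strains at the same temperature.

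Differences between genes on the same array do not depend on a shift of the whole array, although quantile normalization can move them. The mean log2 signal of the 4 assembly factors minus that of the 4 subunits, set against the strain's own mean at 30°C, was 0.88 and 1.44 on the heated NFRI 3236 arrays, against -0.12 and 0.12 on the untreated ones. It was 0.70 and 1.30 on the heated NFRI 3155 arrays, against -0.05 and 0.05 on the untreated ones. On the S288C arrays it was 1.04, 1.33 and 1.45 at 39°C, against -0.21, -0.10 and 0.31 at 30°C. In each strain, then, the mean of the assembly factors gained on that of the subunits on every heated array. In NFRI 3236 the 1.44 was on replicate 2, the array with the *WBP1* ratio of 10.9. *SDH1* was also lower on that array (2.82) than on replicate 1 (5.25). The part of RNA integrity in these values was not tested. The average gain was 2.24-fold in NFRI 3236, 2.00-fold in NFRI 3155 and 2.42-fold in S288C. With quantile normalization the gains were 1.71-fold, 1.58-fold and 2.18-fold. With *FMP21* left out, they were 2.31-fold, 2.68-fold and 2.61-fold on the main scale. In NFRI 3155 the log2 heat response of *FMP21* (0.43) was below that of every subunit (0.48 to 0.99). *FMP21* itself was set against the mean of the other 3 assembly factors in the same way. This difference was -0.27 and -0.09 in heated NFRI 3236, -1.82 and -1.55 in heated NFRI 3155 and -0.67, -0.60 and -0.05 in heated S288C, against -0.11 and 0.11, -0.17 and 0.17, and -0.23, 0.02 and 0.21 on the untreated arrays of the same strains. The mean ratio to the other assembly factors, relative to 30°C, was 0.881 in NFRI 3236, 0.311 in NFRI 3155 and 0.739 in S288C. Only in NFRI 3155 did all heated arrays lie below the untreated ones, while 1 heated array of NFRI 3236 and 1 of S288C lay within the untreated range. These contrasts are given without a test.

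**Figure D3:**
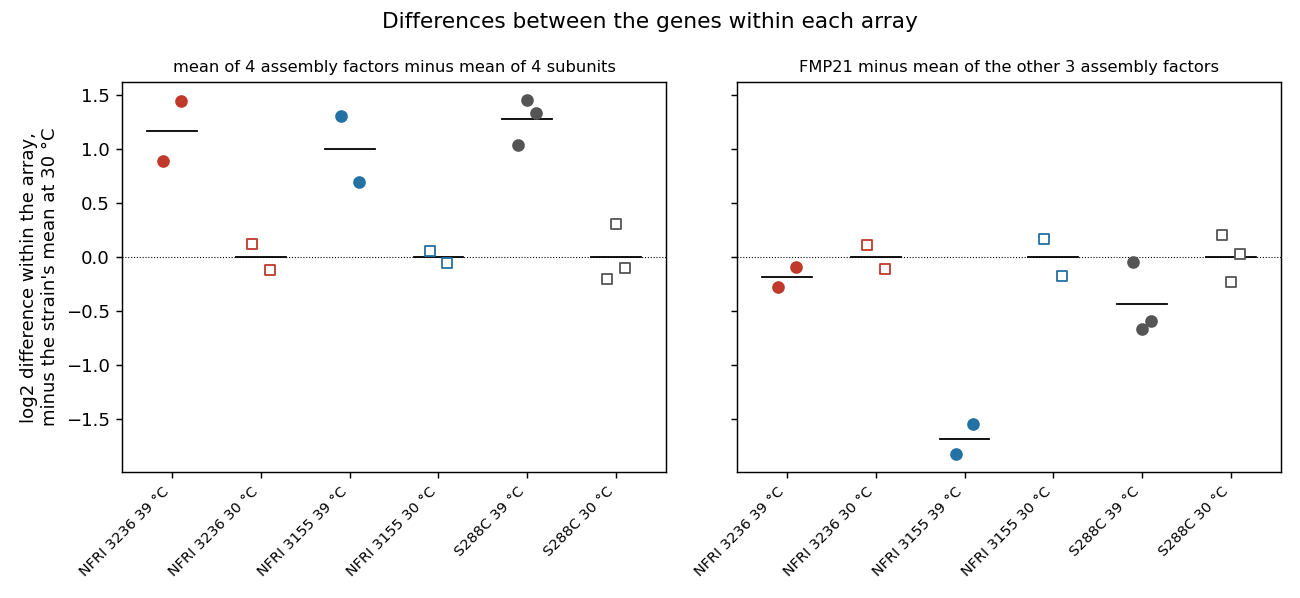
Within-array log2 difference minus the strain's mean at 30°C (y axis) by strain and temperature (x axis), for the assembly factors against the subunits (left) and *FMP21* against the other assembly factors (right). Points are arrays and bars means; heated arrays lie between 0.70 and 1.45 on the left, and the 2 heated NFRI 3155 arrays lie at -1.82 and -1.55 on the right.

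The heat responses of 2 genes were called different between strains. For NFRI 3236 minus S288C, 0 of 8 genes were called (10.1% of all genes in either direction), with log2 differences of 0.18 to 0.89 and 4 genes, *SDH2*, *SDH4*, *SDH6* and *FMP21*, whose 95% interval lay above 0. The *SDH6* interval reached highest, to 1.66. For S288C minus NFRI 3155, 1 of 8 was called (16.5%), which was *SDH6* at -1.37 (-2.14 to -0.60, adjusted p = 0.0214), meaning a larger response in NFRI 3155. This call was lost without NFRI 3155 30°C replicate 1 (-1.14, adjusted p = 0.103), NFRI 3155 39°C replicate 1 (-1.07, adjusted p = 0.0667) or S288C 30°C replicate 2 (-1.23, adjusted p = 0.0516), and without the 75th percentile shift (-0.98, adjusted p = 0.389). *SDH3* followed with -0.85 (-1.47 to -0.24, adjusted p = 0.0573). For NFRI 3236 minus NFRI 3155, 1 of 8 was called (2.5%), which was *FMP21*, the gene picked for that order, at 1.45 (0.77 to 2.12). This call was lost without any 1 of 5 arrays (both of NFRI 3155 at 30°C, NFRI 3155 39°C replicate 2, NFRI 3236 30°C replicate 2 and NFRI 3236 39°C replicate 2), at 1.19 to 1.49. It was also lost without the 75th percentile shift (2.07, adjusted p = 0.161), with the replicate number as a block (adjusted p = 0.0666) and in a fit of only the arrays compared (adjusted p = 0.120). The other 7 genes differed by -0.48 to 0.40 between these strains, and their intervals, which reached from -1.32 to 1.22, all held 0. The S288C arrays enter both comparisons with S288C.

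The strains were also compared at each temperature. At 39°C, 1 of 8 genes was higher in NFRI 3236 than in S288C and 0 were lower (13.1% and 14.9% of all genes), and 3 of 8 were higher in NFRI 3155 than in S288C and 1 was lower (21.6% and 23.1%). The genes higher at 39°C were all subunits. *SDH1* was 2.04-fold higher in NFRI 3236 (1.38 to 2.99, adjusted p = 0.0104) and 2.62-fold higher in NFRI 3155 (1.78 to 3.85, adjusted p = 9.26e-04). *SDH2* was 1.86-fold higher in NFRI 3155 (1.29 to 2.69, adjusted p = 0.00988) and *SDH3* 1.65-fold higher (1.22 to 2.23, adjusted p = 0.0105). The gene lower in NFRI 3155 was *FMP21*, at 0.652 of its S288C value (0.481 to 0.882), and in NFRI 3236 its ratio was 0.768 (0.567 to 1.04). Without NFRI 3155 39°C replicate 2, only *SDH1* was still called in NFRI 3155 (log2 differences 0.72 for *SDH2*, 0.66 for *SDH3* and -0.55 for *FMP21*), and the *FMP21* call was also lost without S288C 39°C replicate 2 (-0.61). Without NFRI 3236 39°C replicate 1 no gene was called in NFRI 3236 (*SDH1* at 0.58, adjusted p = 0.143), and without S288C 39°C replicate 1 there were 3 calls. Between NFRI 3236 and NFRI 3155, 0 of 8 genes were called at 39°C (20.4%).

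At 30°C, 1 of 8 genes was higher in NFRI 3236 than in S288C and 2 were lower (15.4% and 13.8% of all genes), and 1 was higher and 1 lower in NFRI 3155 than in S288C (16.3% and 13.9%). *SDH1* was again the higher gene, 1.80-fold in NFRI 3236 (1.23 to 2.65, adjusted p = 0.0253) and 2.75-fold in NFRI 3155 (1.87 to 4.05, adjusted p = 0.00104). *SDH6* was lower in both, at 0.523 of its S288C value in NFRI 3236 (0.359 to 0.763, adjusted p = 0.0146) and 0.466 in NFRI 3155 (0.319 to 0.679, adjusted p = 0.00544). At 39°C the *SDH6* ratios to S288C were 0.971 (0.666 to 1.42) in NFRI 3236 and 1.20 (0.824 to 1.75) in NFRI 3155. *FMP21* was lower in NFRI 3236 alone, at 0.470 of its S288C value (0.347 to 0.637) and 0.432 of its NFRI 3155 value (0.310 to 0.602). It was the 1 of 8 genes called between the NFRI strains at 30°C (8.91% of all genes). Without the 75th percentile shift the *FMP21* difference from S288C was -0.19 on the log2 scale in place of -1.09 (adjusted p = 0.705), and that from NFRI 3155 was -1.42 and not called (adjusted p = 0.0824). Both NFRI strains are set against the same S288C arrays, and for each pair of strains a difference in RNA level and one in the match of the RNA to the probes cannot be told apart. Without the 75th percentile shift the median over all genes was 0.93 in NFRI 3236 and 1.14 in NFRI 3155 relative to S288C, and the *SDH6* values were -0.04 and 0.00.

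Several of the calls at 30°C rested on single arrays or on the scaling. That of *SDH1* in NFRI 3236 was lost without NFRI 3236 30°C replicate 1 (log2 difference 0.95, adjusted p = 0.0786) or replicate 2 (0.76, adjusted p = 0.154), and without S288C 30°C replicate 1 (0.87, adjusted p = 0.0508) or replicate 2 (0.75, adjusted p = 0.0862). It was lost as well with quantile normalization (0.76, adjusted p = 0.0552) and with the percentile taken over *S. cerevisiae* probe sets (0.66, adjusted p = 0.0760). The *SDH6* call in NFRI 3236 was lost without NFRI 3236 30°C replicate 2 (-0.81, adjusted p = 0.116) or S288C 30°C replicate 2 (-0.80, adjusted p = 0.0581), and in NFRI 3155 without NFRI 3155 30°C replicate 1 (-0.88, adjusted p = 0.0836). The difference of *SDH1* between NFRI 3155 and S288C kept its call whichever array was left out.

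**Figure D4:**
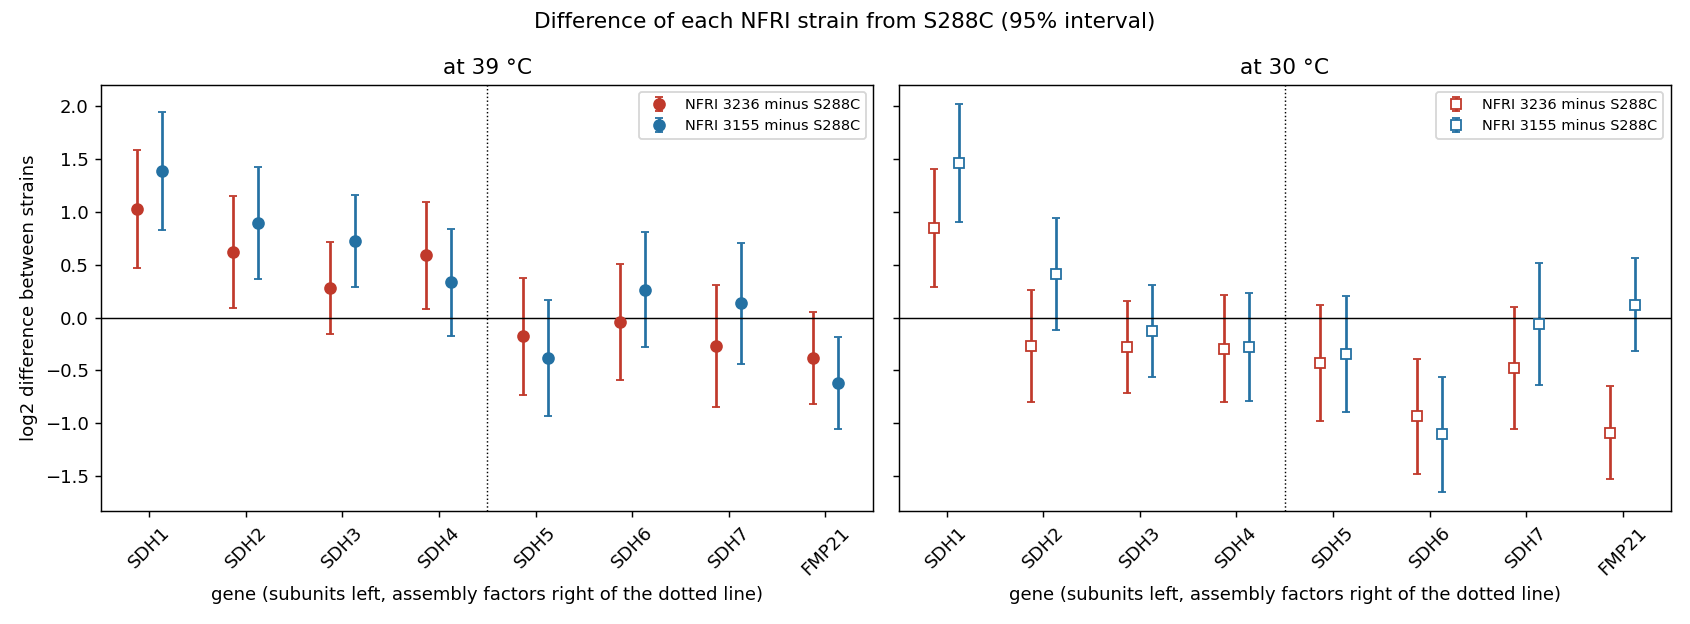
Log2 difference of NFRI 3236 and NFRI 3155 from S288C (y axis) for each gene (x axis) at 39°C (left) and 30°C (right). Points are limma estimates and bars 95% intervals; *SDH1* lies above 0 in all 4 comparisons (0.85 to 1.46), and *SDH6* lies at -0.93 and -1.10 at 30°C but at -0.04 and 0.26 at 39°C.

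The probe sets of 3 subunit paralogs were measured. *SHH3*, a paralog of *SDH3*, had relative signals of 0.621 and 0.514 at 39°C in NFRI 3236, against 0.0200 and 0.0669 at 30°C. In NFRI 3155 it had 1.78 and 1.92 at 39°C, against 0.0486 and 0.0587 at 30°C, and in S288C 1.04, 0.629 and 0.657 at 39°C, against 0.0697, 0.0463 and 0.0451 at 30°C. *SHH3* thus rose 15.4-fold, 34.6-fold and 14.3-fold in these strains (adjusted p = 2.52e-05, 1.70e-06 and 1.44e-06), starting from signals close to background. NFRI 3236 30°C replicate 1 and S288C 30°C replicate 3 were not above it, so the ratios in these strains rest in part on unmeasured levels. *SHH4*, a paralog of *SDH4*, had ratios of 39°C to 30°C of 1.01 in NFRI 3236 (adjusted p = 0.980), 2.00 in NFRI 3155 (adjusted p = 0.00292) and 0.426 in S288C (adjusted p = 8.66e-05). Its heat response differed by -2.23 on the log2 scale for S288C minus NFRI 3155 (adjusted p = 4.51e-04) and by 1.24 for NFRI 3236 minus S288C (adjusted p = 0.0203). *TIM18*, a paralog that serves in the TIM22 complex, was not called, with ratios of 1.05, 0.740 and 0.550 in NFRI 3236, NFRI 3155 and S288C. In heated S288C its relative signal was 0.684 on replicate 1 but 2.60 and 2.66 on the others, so the last ratio leans on 1 array. YJL045W, the paralog of *SDH1*, has no named probe set here, and whether any probe set also takes up RNA of a paralog was not tested.

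Genes that supply the flavin of Sdh1 had smaller ratios of 39°C to 30°C than *SDH5* in each strain. *FAD1*, the FAD synthetase, had ratios of 1.94 in NFRI 3236, 1.20 in NFRI 3155 and 1.44 in S288C, with the first and the last called. *FMN1*, the riboflavin kinase before it, had 1.51, 1.59 and 2.34, of which those in NFRI 3155 and S288C were called. *FLX1*, a mitochondrial carrier linked to FAD transport, had 1.17, 1.71 and 0.554, and was called lower in S288C (adjusted p = 0.0222). The counts of the following lists stand beside 15.7%, 18.1% and 25.2% of all genes higher and 23.5%, 24.1% and 28.2% lower in NFRI 3236, NFRI 3155 and S288C. Iron-sulfur cluster assembly, which serves Sdh2, had 2 of 15 genes higher and 1 lower in NFRI 3236, 1 and 1 in NFRI 3155 and 4 and 1 in S288C. Its co-chaperone *JAC1* had ratios of 3.17, 1.4 and 2.95, and the chaperone *SSQ1* had 1.17, 1.38 and 2.39, with *JAC1* called in NFRI 3236 and S288C and *SSQ1* in S288C. The ferredoxin *YAH1* was lower in S288C (0.513) and the scaffold *ISU2* in NFRI 3155 (0.485). Of 3 other genes of the LYR-motif family to which *SDH6* belongs, *MZM1* was higher in NFRI 3155 (1.99-fold) and *ISD11* in S288C (1.51-fold), and none was called in NFRI 3236.

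In the rest of the tricarboxylic acid cycle, 5 of 13 genes were higher and 1 lower in NFRI 3236, 4 and 0 in NFRI 3155 and 10 and 1 in S288C. *IDH1*, a subunit of isocitrate dehydrogenase, rose in all 3 strains (2.23-fold, 1.50-fold and 2.00-fold), and *CIT1*, citrate synthase, had ratios of 1.22, 1.88 and 3.82 with the last 2 called. *LSC1*, a subunit of succinyl-CoA ligase, which makes succinate, was lower in NFRI 3236 (0.596) and S288C (0.674), and its ratio in NFRI 3155 was 0.972. These *LSC1* falls were smaller than the shift of the scaling, so they turn sign without it. Ubiquinone synthesis, which makes the electron acceptor of complex II, had 4 of 9 genes higher in each strain and 1 lower in S288C. *COQ4* rose 2.68-fold, 3.30-fold and 3.02-fold in NFRI 3236, NFRI 3155 and S288C and *COQ6* 1.87-fold, 2.43-fold and 3.15-fold, while *COQ2* was lower in S288C (0.443). Standard errors of the named paralogs, flavin genes and other list genes were 0.17 to 0.50 on the log2 scale.

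The respiratory complexes downstream of ubiquinone had median heat responses of -0.53 to -0.04 on the log2 scale, within the shift of the scaling in NFRI 3236 and S288C. In complex III, 1 of 9 genes was higher and 1 lower in NFRI 3236, 0 and 2 in NFRI 3155 and 4 and 2 in S288C. *QCR10* was higher in S288C (3.61-fold) and NFRI 3236 (1.67-fold) and *QCR2* in S288C (2.30-fold), whereas *CYT1*, cytochrome c1, was lower in NFRI 3236 (0.605) and NFRI 3155 (0.404) and *RIP1*, the Rieske protein, in S288C (0.549). The *CYT1* fall in NFRI 3236 was smaller than the shift of the scaling. In complex IV, 1 of 9 was higher and 1 lower in NFRI 3236, 1 and 4 in NFRI 3155 and 1 and 2 in S288C. In the HAP complex, *HAP4*, its glucose-regulated activating subunit, had relative signals of 1.03 and 0.986 at 39°C in NFRI 3236, against 3.27 and 2.97 at 30°C. In NFRI 3155 it had 0.813 and 1.38 at 39°C, against 3.08 and 2.90 at 30°C, and in S288C 1.16, 1.62 and 1.77 at 39°C, against 2.15, 2.24 and 1.89 at 30°C. *HAP4* was thus lower on every heated array than on the untreated arrays of its strain, with ratios of 0.324 (adjusted p = 4.10e-04), 0.354 (adjusted p = 5.45e-04) and 0.716 (adjusted p = 0.0759). The *HAP4* fall in S288C was smaller than the shift of the scaling. *HAP5* rose 2.48-fold in NFRI 3236 and 1.74-fold in NFRI 3155, and *HAP2* 1.92-fold in NFRI 3236.

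**Figure D5:**
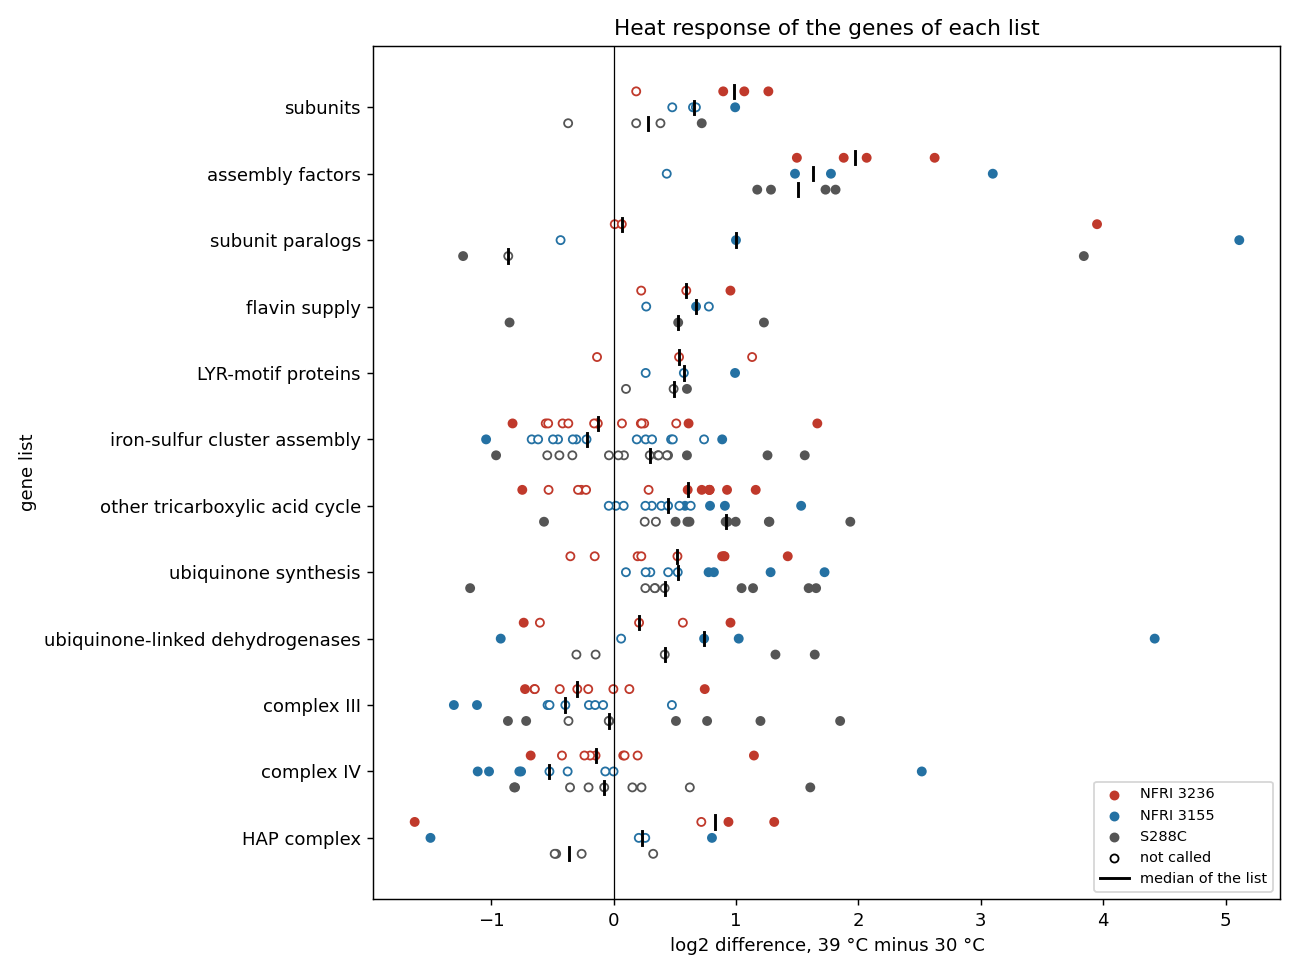
Log2 difference of 39°C minus 30°C (x axis) for every measured gene of 12 gene lists (y axis) in NFRI 3236, NFRI 3155 and S288C. Filled points passed the test, open points did not and bars are list medians; the assembly factors have medians of 1.97, 1.63 and 1.51, and the medians of complexes III and IV lie between -0.53 and -0.04.

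Over the 14 arrays the profile of *FMP21* was most like those of other assembly factors among the 8 genes, with Pearson's r of 0.86 for *SDH5*, 0.82 for *SDH7* and 0.81 for *SDH6*. For the subunits r was 0.69 (*SDH4*), 0.49 (*SDH2*), 0.19 (*SDH1*) and 0.02 (*SDH3*). Of 4938 other genes above background on all arrays, 56 had a higher r with *FMP21* than *SDH5* had, 114 than *SDH7* and 137 than *SDH6*. The 5 most alike were *INH1*, the inhibitor of the mitochondrial ATP synthase, with r of 0.93, and *DCS1*, *MDJ1*, *MRPL28* and *SOH1*, with 0.92 to 0.93. *INH1*, *MDJ1* and *SOH1* had the same order of heat responses as *FMP21*, and *DCS1* and *MRPL28* did not. All were picked for their likeness to *FMP21* on these arrays, so a shared order is no separate result. *INH1* rose 4.66-fold in NFRI 3236, 1.74-fold in NFRI 3155 and 2.36-fold in S288C. *MDJ1*, a mitochondrial Hsp40 co-chaperone, had 6.04, 2.43 and 5.63. *SDH6* was most like *FMP46*, another protein found in mitochondria, with r of 0.97 and ratios of 5.90, 11.0 and 2.89, followed by *EGO4*, *MAG1*, *YPI1* and *RRT8*. With *SDH6*, r was 0.95 for *SDH5*, 0.91 for *SDH7*, 0.84 for *SDH4* and 0.81 for *FMP21*. Of the 4938 genes, 14, 66, 227 and 313 had a higher r with *SDH6* than these. The arrays share strains and temperatures, so these r describe the profiles and were not tested.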

How the data were processed

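RNA of *S. cerevisiae* was measured on 14 one-colour Affymetrix arrays. The deposited intensities, 1 linear value for each probe set, came from GCOS, which the authors ran with default settings. They had not yet received the 75th percentile shift that the methods describe, so it was done here. The 75th percentile ranged from 95.7 to 438 between arrays, and the background signal from 4.57 to 11.9. Signals below 1 were set to 1, taken to log2, and shifted by the 75th percentile of the array, taken over its 10928 probe sets. Of 5449 named genes, 6 below the 20th percentile in an array of every group were left out. For the 47 genes with several probe sets, the brightest was used.

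One model with 6 group means was fitted to all arrays with limma 3.58.1 in R 4.3.3 (two-sided, empirical Bayes, Benjamini-Hochberg adjustment over 5443 genes) and checked on simulated data. On the log2 scale the posterior SD of a gene had a median of 0.27. Precision is limited by how few arrays there were. The 12 comparisons were the heat responses, their differences between strains, and strain differences at each temperature. The members and gene lists were chosen with earlier results of these data known. Named were all 8 members, the subunit paralogs, the flavin genes and, from each other list, up to 2 genes called higher and 2 called lower with the largest mean change. Likeness was ranked over genes above background on all arrays. The alternatives were other scalings, 16 added to each signal, no filter on low values, every probe set on its own, the arrays compared only, the replicate number as a block, the methods' t-test and leaving out each array. The detection flags of the methods were not used here. No genome was used, so no coordinates or sequences are given.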

Additional observations from a re-analysis of the deposited data

Results flagged for a closer look

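*SDH6* is listed because its heat response differed between strains by a test of the difference itself. The log2 difference for S288C minus NFRI 3155 was -1.37 (adjusted p = 0.0214 from limma), with rises of 8.56-fold in NFRI 3155 and 3.32-fold in S288C. The values at 39°C overlapped, and those at 30°C did not. The call was lost without any 1 of 3 arrays and without the 75th percentile shift (-0.98, adjusted p = 0.389).

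*FMP21* is listed for the same reason, with a log2 difference of 1.45 for NFRI 3236 minus NFRI 3155 (adjusted p = 0.0282 from limma). The study picked this gene from these arrays for its heat response, so this p is no independent evidence. The relative signals of *FMP21* at 39°C overlapped between the NFRI strains, while those at 30°C did not. The call was lost in 8 of 16 alternatives. No rule for listing single arrays that stand apart was applied to groups of 2 or 3 arrays, although each array was left out in turn.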

How the results depend on the processing

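Counts of the 8 genes called moved with the processing as follows. With no 75th percentile shift, the heat response differences S288C minus NFRI 3155 and NFRI 3236 minus NFRI 3155 had 0 calls each in place of 1. At 30°C there was 1 call in place of 3 for NFRI 3236 minus S288C, 5 in place of 2 for NFRI 3155 minus S288C and 0 in place of 1 for NFRI 3236 minus NFRI 3155, and at 39°C 5 in place of 1 for NFRI 3236 minus S288C. Among the results followed singly (the heat responses and every called difference), signs turned without the shift for *SDH3* in heated S288C (0.23), *SDH6* in NFRI 3155 minus S288C at 30°C (0.00407) and *FMP21* in NFRI 3155 minus S288C at 39°C (0.10), and that of *SDH3* also with quantile normalization (0.12). Of the 59 other differences, none of them called, 22 turned sign without the shift and 2 with quantile normalization. Quantile normalization gave 7 calls for the heat response of NFRI 3155, and among heat response differences 2 calls (S288C minus NFRI 3155) and 1 call (NFRI 3236 minus S288C). At 39°C it gave 2 for NFRI 3236 minus S288C and 1 for NFRI 3236 minus NFRI 3155. S288C minus NFRI 3155 had 2 calls with the percentile over *S. cerevisiae* gene probe sets and 2 with 16 added to each signal, which gave 3 for NFRI 3236 minus S288C at 39°C. With only the arrays compared, the difference NFRI 3236 minus NFRI 3155 had 0 calls and NFRI 3155 minus S288C at 39°C had 2. The methods' t-test, unadjusted, gave 2 calls at 39°C for NFRI 3236 minus S288C and 2 for NFRI 3236 minus NFRI 3155. After Benjamini-Hochberg adjustment it gave 0 for the heat responses of NFRI 3236 and NFRI 3155, 1 for NFRI 3155 minus S288C and 0 for NFRI 3236 minus NFRI 3155 at 30°C, and 0 for NFRI 3236 and 2 for NFRI 3155 minus S288C at 39°C. The cause of these changes was not tested.

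Deviations of same-numbered arrays at 39°C and 30°C had r of -0.079 to 0.052. With 2 arrays a group the deviations mirror each other, so each NFRI strain gives only 1 value. In S288C r was 0.052, 0.021 and 0.048 for the same numbers and -0.053 to 0.015 for different ones. Whether the numbers pair the arrays cannot be told from these values. With the replicate number as a block, the heat response difference NFRI 3236 minus NFRI 3155 had 0 calls in place of 1.

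Leaving out 1 array at a time gave 5 to 7 calls for the heat response of NFRI 3236, 3 to 5 for NFRI 3155 and 4 to 5 for S288C. Among heat response differences, NFRI 3236 minus S288C kept 0 to 0 calls, while S288C minus NFRI 3155 had 0 to 1 and NFRI 3236 minus NFRI 3155 had 0 to 1. At 30°C the ranges were 1 to 3, 1 to 2 and 1 to 1 for NFRI 3236 minus S288C, NFRI 3155 minus S288C and NFRI 3236 minus NFRI 3155, and at 39°C 0 to 3, 1 to 4 and 0 to 0. An arm left with 1 array is assumed to vary like the other groups. Over the 37 results for single genes, 472 values kept their direction and call, 63 lost the call, 11 gained one and 4 turned sign. The heat calls of *SDH5*, *SDH6* and *SDH7* held under every alternative but the adjusted t-test, which lost them in both NFRI strains. With 2 or 3 arrays a group and 1 probe set a gene, small differences were not detectable.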

Other observations

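Isoforms of complex IV and of the NADH dehydrogenases, which hand electrons to the same ubiquinone pool as complex II, had ratios of 39°C to 30°C on opposite sides of 1, not all of which were called. *COX5B*, the isoform of Cox5 used with little oxygen, had relative signals of 1.97 and 2.75 at 39°C in NFRI 3236, against 1.12 and 0.984 at 30°C. In NFRI 3155 it had 5.31 and 3.19 at 39°C, against 0.594 and 0.872 at 30°C, and in S288C 10.5, 6.73 and 6.46 at 39°C, against 2.18, 2.91 and 2.56 at 30°C. It rose 2.21-fold, 5.72-fold and 3.04-fold (adjusted p = 0.0122, 4.08e-05 and 1.76e-04 from limma). *COX5A*, the isoform used in air, had ratios of 0.746 in NFRI 3236 (adjusted p = 0.135), 0.493 in NFRI 3155 (adjusted p = 0.00187) and 0.572 in S288C (adjusted p = 0.00164), and *COX4* had 0.902, 0.592 and 0.569, with the last 2 called. In NFRI 3236 the falls of *COX5A* and *COX4* were smaller than the shift of the scaling.

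*NDE2*, an external NADH dehydrogenase, had relative signals of 0.819 and 1.15 in NFRI 3155 at 39°C, against 0.0403 and 0.0511 at 30°C. On the heated arrays of the other strains it had 0.113 to 0.171. It rose 1.94-fold in NFRI 3236, 21.4-fold in NFRI 3155 and 3.12-fold in S288C. Replicate 1 of NFRI 3155 and of S288C at 30°C (0.0403 and 0.0517) was not above background, so these 2 ratios, and the differences between strains, rest in part on unmeasured levels. The heat response differed by -3.47 on the log2 scale for NFRI 3236 minus NFRI 3155 (adjusted p = 3.25e-04 from limma). Its paralog *NDE1* was lower in NFRI 3236 (0.600) and NFRI 3155 (0.527), with a ratio of 0.809 in S288C that was not called. The *NDE1* falls in NFRI 3236 and S288C were smaller than the shift of the scaling. *GUT2*, which feeds electrons from glycerol 3-phosphate, was higher in NFRI 3155 (2.03-fold) and S288C (2.50-fold). Of the 5 ubiquinone-linked dehydrogenases, 1 was higher and 1 lower in NFRI 3236, 3 and 1 in NFRI 3155, and 2 and 0 in S288C, beside 15.7%, 18.1% and 25.2% of all genes higher in these strains.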
